A study of Mus musculus with 8 samples.

Results

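Ribosomes are assembled in the nucleolus, and 45 genes for nucleolar proteins that carry out this work are described here in tumors formed by the mouse prostate cancer line *Myc*-CaP. The genes were taken from a list of symbols of nucleolar factors and RNA polymerase I factors known as targets of the transcription factor MYC, and all 45 were found among the 39089 genes with deposited counts. The list is one of symbols, chosen with earlier results of these data known. By what their proteins do they were divided into RNA polymerase I (5 genes), the box C/D snoRNP (3), the box H/ACA snoRNP (4), assembly of the small ribosomal subunit (15), assembly of the large subunit (13) and multifunctional nucleolar proteins (5). *Myc*-CaP cells transduced with an empty control vector (called WT) or with a guide that targets *Arid1a* (called *Arid1a* KO) grew under the skin of 6-week-old male FVB mice, and from day 16 the hosts received JSH-23 in DMSO and corn oil by gavage for 2 weeks, or vehicle, which the labels give as corn oil and the study names DMSO. JSH-23 blocks entry of the NF-κB subunit p65 into the nucleus, and *Arid1a* encodes a DNA-binding subunit of the SWI/SNF chromatin remodeler. *Myc*-CaP is a single line that carries a human MYC transgene driven by a prostate promoter, and the guide-bearing cells were a drug-selected population made by lentivirus. Cells gated as EpCAM+ and CD45- were sequenced, 2 samples to a group.

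RNA polymerase I transcribes the ribosomal DNA into a long precursor RNA. Box C/D and box H/ACA particles modify that precursor by methylation and pseudouridylation, and large sets of helicases, GTPases and scaffold proteins cut and fold it into the subunits that leave for the cytoplasm. MYC binds the promoters of many of these genes, and a swollen nucleolus has long been used by pathologists as a sign of prostate cancer.

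Total counts ranged from 16401581 to 21972231 per sample, and each of the 45 members had at least 222 counts in every sample. Levels are given as CPM, counts as a share of the library, scaled to a fixed total with TMM factors, and differences as log2 fold changes from the quasi-likelihood test of edgeR, with p-values adjusted after Benjamini and Hochberg over the 13921 genes that passed a filter on low counts. A gene was called at an adjusted p under 0.05. No source used here says that the 2 samples of a group came from separate tumors, so the p-values measure the spread between these samples, which may be technical. The biological coefficient of variation over all genes was only 1.61%, so small differences were called. *Arid1a* itself was at 159 ± 4.04 CPM (WT) and 104 ± 2.13 CPM (KO) under vehicle, and at 150 ± 7.72 CPM (WT) and 94.9 ± 1.49 CPM (KO) under JSH-23 (SD, n = 2), each KO sample lying below each WT sample. *Epcam*, the marker of the sort, had between 0 and 4 counts per sample, *Cdh1* between 1 and 19 and *Krt18* between 4 and 18. Only *Krt8* and *Krt19* of the 5 epithelial markers were abundant, at group means of 33.0 to 112 CPM and 12.7 to 103 CPM. The summed level of the 5 epithelial markers was 88.5 to 102 CPM (WT) and 215 to 217 CPM (KO) under vehicle, and 45.3 to 47.0 CPM (WT) and 179 to 187 CPM (KO) under JSH-23. The 6 fibroblast markers, mostly Pdgfra, summed to 41.7 to 42.3 CPM in *Arid1a* KO with JSH-23 and to 59.6 to 64.9 CPM in the other 3 groups, Pdgfra being lower with JSH-23 in KO tumors (-0.67). The 9 leukocyte markers summed to 18.6 to 19.7 CPM (WT) and 20.1 to 22.4 CPM (KO) under vehicle, and to 10.3 to 18.4 CPM (WT) and 10.1 to 13.0 CPM (KO) under JSH-23, with *Ptprc* at 0 to 10 counts. Single leukocyte markers moved apart with loss of *Arid1a* under vehicle, Lyz2 (-1.59) and Csf1r (-2.65) being lower, Itgam at 10 and 15 counts in WT and 0 in both KO samples, and Cd68 higher (1.32). The 4 endothelial markers summed to at most 1.68 CPM. The part of these markers in the results was not tested, and in bulk RNA fewer cells of a type cannot be told apart from less RNA per cell.

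MYC and its partner MAX bind the E-box, and the letters CACGTG, which read the same on both strands, were searched for in the promoters of the members, from 250 bases before to 50 bases after the start of the gene. Promoter sequences from RefSeq (GRCm38.p6) were matched for 39 members (47 windows, since some genes have several starts), the other 6 being *Bop1*, *Fbl*, *Nol6*, *Npm1*, *Rrp12* and *Rrs1*. The letters were present in 8 of the 39 (20.5%), beside 16 of 79 other ribosome biogenesis genes (20.3%), 11.4% of the 11001 tested genes with a promoter and 8.09% of all 27025 genes with one. In 5 of the 8, namely *Pes1*, *Utp4*, *Wdr43*, *Tsr1* and *Utp20*, the match began 3, 16, 18, 25 and 38 bases after the RefSeq start, in an untranslated part of an exon. In *Wdr43*, which the files start further upstream, that was base 55 of the gene. Before the start, matches were left in 3 members (7.69%), beside 9.68% of the tested genes. These were *Rrn3*, which encodes the factor that carries RNA polymerase I to its promoter, *Nop2*, a methyltransferase of the large-subunit RNA, and *Imp4*, a small-subunit assembly factor. The 250 bases before the start of *Rrn3* and *Nop2* are shown, with their matches outside any annotated gene. *Rrn3* held the most matches, and *Nop2* had the upstream match nearest its start among the other members. Then follow 30 bases around the match before *Imp4*, which lies in an exon of *Gm28306* on the opposite strand. The capitals mark CACGTG.
Rrn3, chr16:13780449-13780698, plus strand: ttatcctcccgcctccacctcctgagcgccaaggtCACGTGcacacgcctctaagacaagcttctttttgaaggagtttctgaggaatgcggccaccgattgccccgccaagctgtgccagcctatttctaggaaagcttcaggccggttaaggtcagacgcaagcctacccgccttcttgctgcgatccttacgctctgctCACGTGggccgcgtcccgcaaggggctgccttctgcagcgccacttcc
Nop2, chr6:125131633-125131882, plus strand: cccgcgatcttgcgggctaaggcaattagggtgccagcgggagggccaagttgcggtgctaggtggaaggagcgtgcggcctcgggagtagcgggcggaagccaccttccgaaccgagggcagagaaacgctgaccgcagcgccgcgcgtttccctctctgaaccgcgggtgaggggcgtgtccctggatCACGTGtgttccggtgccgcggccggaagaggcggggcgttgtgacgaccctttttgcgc
*Imp4*, chr1:34439696-34439725, plus strand: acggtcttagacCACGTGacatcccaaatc
In *Rrn3* the letters began at positions -215 and -48 from the start, in *Nop2* at -60 and in *Imp4* at -121. A match describes the sequence only, and binding was not measured. In *Arid1a* KO tumors the median log2 fold change with JSH-23 was 0.00 over the 8 members with a match, of which 3 were called higher and 1 lower, and 0.37 over the 31 without, of which 24 were higher and 1 lower, in a comparison in which 33.4% of all genes were higher and 34.4% lower. Between *Arid1a* KO and WT tumors with vehicle these medians were -0.21 and -0.30. They were -0.09 and -0.04 between KO and WT tumors with JSH-23, and -0.09 and 0.07 with JSH-23 in WT tumors. For the JSH-23 effect in KO minus that in WT they were 0.17 and 0.37. All members with a match were at least 2249 bases long. With JSH-23 in *Arid1a* KO tumors the median was 0.60 among the 9 members shorter than 1500 bases and 0.25 among the 36 others. The part of length in this split was not tested.

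The summed level of the 45 members was lowest in *Arid1a* KO tumors with vehicle and highest in *Arid1a* KO tumors with JSH-23. It was 6107 and 6093 CPM in the 2 WT samples with vehicle, 5376 and 5335 CPM in the *Arid1a* KO samples with vehicle, 6363 and 6363 CPM in WT under JSH-23, and 6916 and 6953 CPM in *Arid1a* KO with JSH-23. No sample of one group reached into another. *Npm1* and *Ncl* made up a large part of these sums, and without them the values were 2952 and 2957, 2431 and 2430, 2953 and 2960, and 2905 and 2937 CPM in the same order. The smaller sum in *Arid1a* KO tumors with vehicle was therefore also present among the other 43 members, whereas the excess over WT in *Arid1a* KO tumors with JSH-23 was not. As a share of all counts, with no scaling factor, the 45 members took 0.618% and 0.616% in WT with vehicle, 0.554% and 0.549% in *Arid1a* KO with vehicle, 0.640% and 0.638% in WT under JSH-23, and 0.661% and 0.660% in *Arid1a* KO under JSH-23.

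**Figure D1:**
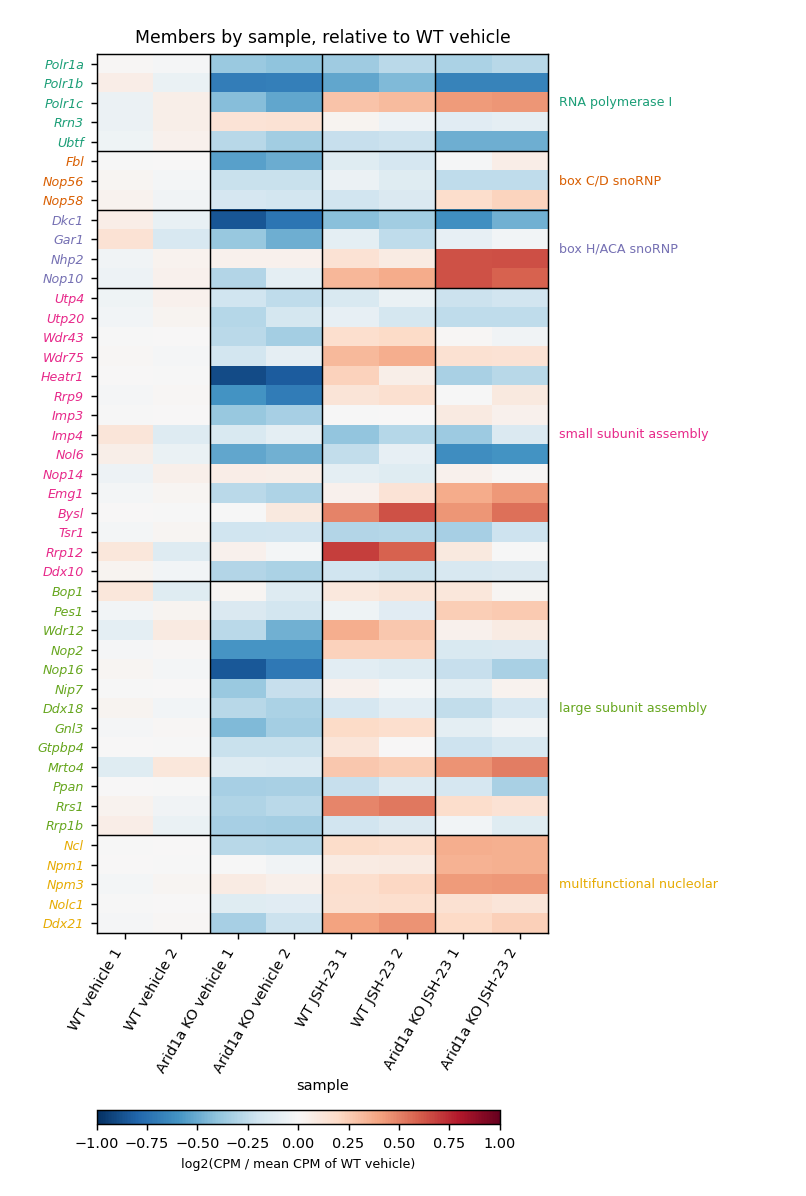
Level of each of the 45 members (rows, colored and grouped by role) in each of the 8 samples (columns) as log2 of its CPM over the mean CPM of the 2 WT samples with vehicle; blue is lower and red higher. The 2 *Arid1a* KO columns with vehicle are blue for most members, with *Heatr1* lowest at a fitted log2 fold change of -0.86, and the 2 samples of a group look alike.

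The first question was whether loss of *Arid1a* moved these genes. Under vehicle, 34 of the 45 members fell in *Arid1a* KO relative to WT tumors (75.6%) and 1 rose, with a median log2 fold change of -0.29. Over all genes tested 25.5% fell and 25.0% rose, with a median of 0.00. The falls were seen in every role: 4 of 5 RNA polymerase I genes, 3 of 3 box C/D genes, 3 of 4 box H/ACA genes, 10 of 15 small-subunit genes, 11 of 13 large-subunit genes and 3 of 5 multifunctional genes. Counting only changes of at least 1.5-fold at an unadjusted p under 0.05, 6 members were lower, namely *Heatr1*, *Dkc1*, *Nop16*, *Polr1b*, *Rrp9* and *Nop2*, in a comparison in which 5.62% of all genes were lower and 8.24% higher by that criterion. Most of the falls were thus smaller than 1.5-fold. Abundance bears on such counts, since genes above a mean of 10 CPM, as all members were, are called more often: 33.1% of the 9194 genes at that level fell and 28.6% rose.

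JSH-23 was then compared with vehicle within each genotype. In *Arid1a* KO tumors 30 members rose with JSH-23 (66.7%) and 2 fell, with a median log2 fold change of 0.29, while 33.4% of all genes rose and 34.4% fell. Among genes above 10 CPM, 43.9% rose and 32.8% fell. By the 1.5-fold criterion 7 members were higher, *Polr1c*, *Nop10*, *Nhp2*, *Rrp9*, *Emg1*, *Ncl* and *Mrto4*, in a comparison with 9.27% of all genes higher and 17.4% lower. On TPM values, which divide each count by gene length, limma called 18 members higher and 14 lower, with 16.7% of all genes higher and 49.4% lower. The median of all genes itself sat at -0.02 with TMM scaling, -0.13 with library size alone and -0.20 on log2(TPM + 1), and 37, 37 and 35 of the 45 members lay above it under these scalings.

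In WT tumors the members did not move together. With JSH-23, 17 rose and 16 fell, a median log2 fold change of 0.01, beside 28.6% of all genes that rose and 27.2% that fell. Among genes above 10 CPM, 37.6% rose and 28.7% fell. DESeq2 called 16 higher and 10 lower. A single member, *Rrp12*, was higher by the 1.5-fold criterion, under which 5.97% of all genes were higher and 10.9% lower.

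Between *Arid1a* KO and WT tumors that both received JSH-23, 12 members were higher and 15 lower, with a median of -0.06 and with 23.2% of all genes higher and 23.8% lower. These shares of the members, 26.7% and 33.3%, lay close to those of all genes. Among genes above 10 CPM, 30.6% were higher and 29.4% lower. *Rrp12* was the single member past 1.5-fold, lower in *Arid1a* KO, where 4.26% of all genes were higher and 5.68% lower by that criterion. On TPM values 5 members were higher and 30 lower, against 9.0% and 41.6% of all genes, so this split moved with the scaling of all genes.

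**Figure D2:**
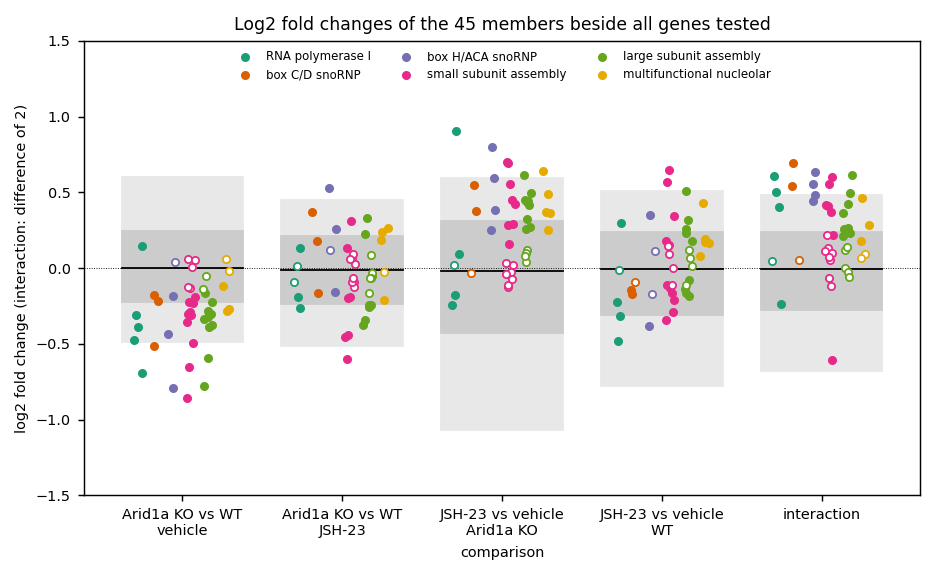
Log2 fold change of each of the 45 members (points, colored by role, filled where the adjusted p was under 0.05) in the 4 comparisons and the interaction, over grey boxes that span the 10th to 90th and the 25th to 75th percentiles of all 13921 genes with a line at their median. With vehicle 34 members lie below 0 as filled points, in *Arid1a* KO with JSH-23 30 lie above 0 as filled points, and in WT with JSH-23 the members spread around 0.

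Within RNA polymerase I the subunits and the initiation factor differed. *Polr1a* and *Polr1b* encode the large subunits that form the active site. *Polr1a* was at 109 and 107 CPM (WT) and 83.4 and 81.8 CPM (KO) under vehicle, and at 84.4 and 89.4 CPM (WT) and 86.6 and 88.9 CPM (KO) under JSH-23. *Polr1b* (chr2:129100970-129128060, plus strand) was at 83.4 and 75.9 CPM in WT with vehicle, 49.2 and 49.5 CPM in *Arid1a* KO with vehicle, 55.5 and 58.8 CPM in WT with JSH-23 and 50.0 and 50.1 CPM in *Arid1a* KO with JSH-23. Its WT samples with vehicle stood above the 6 others. *Polr1b* fell with loss of *Arid1a* (-0.69, SE 0.052, adjusted p = 7.88e-19) and with JSH-23 in WT tumors (-0.48, SE 0.052, adjusted p = 1.67e-12), and differed by 0.02, SE 0.055, adjusted p = 0.749 with JSH-23 in *Arid1a* KO tumors.

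*Polr1c* (chr17:46243920-46248045, minus strand) encodes a subunit shared by RNA polymerases I and III. It was at 63.6 and 69.1 CPM (WT) and 49.3 and 46.4 CPM (KO) under vehicle, and at 80.7 and 82.7 CPM (WT) and 89.2 and 90.0 CPM (KO) under JSH-23. The 4 groups did not overlap, and the KO samples were lowest with vehicle and highest with JSH-23. The rise with JSH-23 in *Arid1a* KO tumors was the largest of the 45 members (0.91, SE 0.048, adjusted p = 8.25e-27), against 0.30, SE 0.049, adjusted p = 2.25e-07 in WT tumors. The higher level in *Arid1a* KO than in WT tumors with JSH-23, a log2 fold change of 0.13, was no longer called without WT JSH-23 sample 1 (0.12) and turned to -0.06 on log2(TPM + 1).

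*Rrn3*, the initiation factor whose upstream sequence is printed above, was at 48.6 and 52.8 CPM (WT) and 55.9 and 56.1 CPM (KO) under vehicle, and at 51.7 and 48.8 CPM (WT) and 46.9 and 47.5 CPM (KO) under JSH-23. It was the single member that rose with loss of *Arid1a* (0.14, SE 0.056, adjusted p = 0.0285), a call that was lost without WT vehicle sample 1 (0.08, adjusted p = 0.372 in edgeR) and without either KO vehicle sample. With JSH-23 it fell in *Arid1a* KO tumors (-0.24, SE 0.055, adjusted p = 8.5e-05). *Ubtf*, an HMG-box protein that covers active ribosomal DNA, was at 159 and 168, 135 and 129, 139 and 141 and 117 and 117 CPM in the samples of the 4 groups in the same order. KO tumors had less *Ubtf* than WT tumors under vehicle (-0.31) and under JSH-23 (-0.26), and *Ubtf* fell with JSH-23 in both genotypes (-0.17 in KO and -0.22 in WT). *Ubtf* is the longest member, at 10127 bases, and with the trend with gene length described further on removed its difference with JSH-23 in KO tumors was -0.06 and no longer called, and its fall in KO relative to WT under JSH-23 was -0.13. Over the 5 genes the median log2 fold change with JSH-23 in *Arid1a* KO tumors was 0.02, and -0.09 and -0.21 with library size alone and on TPM.

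The box C/D particle methylates ribosomal RNA, and fibrillarin, encoded by *Fbl* (chr7:28168893-28179269, plus strand), is its methyltransferase. *Fbl* was at 112 and 112 CPM (WT) and 76.8 and 79.5 CPM (KO) under vehicle, and at 103 and 99.4 CPM (WT) and 111 and 117 CPM (KO) under JSH-23. The KO samples with vehicle were the lowest, and those with JSH-23 lay around the level of WT with vehicle. *Fbl* fell with loss of *Arid1a* (-0.52, SE 0.041, adjusted p = 5.27e-18), rose with JSH-23 in *Arid1a* KO tumors (0.55, SE 0.040, adjusted p = 3.53e-20) and fell with JSH-23 in WT tumors (-0.15, SE 0.040, adjusted p = 0.0012). The scaffold proteins of the same particle, *Nop58* and *Nop56*, followed *Fbl* in part. *Nop58* was at 87.9 and 83.5, 76.3 and 75.4, 74.9 and 77.6 and 96.9 and 99.96 CPM in WT with vehicle, KO with vehicle, WT with JSH-23 and KO with JSH-23, the last being the highest. It rose with JSH-23 in *Arid1a* KO tumors (0.38, SE 0.042, adjusted p = 2.39e-12) and fell in WT tumors (-0.17, SE 0.045, adjusted p = 0.00102), the latter lost without WT vehicle sample 1 (-0.13). *Nop56* fell by 0.22 on the log2 scale with loss of *Arid1a* and differed by -0.03 with JSH-23 in *Arid1a* KO tumors, which was not called (adjusted p = 0.452 in edgeR).

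The box H/ACA particle converts uridine to pseudouridine, and among its 4 core genes *Dkc1* and *Gar1* had the larger falls with loss of *Arid1a*, and *Nhp2* and *Nop10* the larger rises with JSH-23. *Dkc1* (chrX:75095854-75109776, plus strand) encodes dyskerin, the pseudouridine synthase, which is also a part of telomerase. It was at 62.2 and 56.5 CPM (WT) and 32.7 and 35.7 CPM (KO) under vehicle, and at 44.3 and 46.7 CPM (WT) and 38.8 and 42.5 CPM (KO) under JSH-23. The WT samples with vehicle were above all others and the KO samples with vehicle below. *Dkc1* fell with loss of *Arid1a* (-0.79, SE 0.063, adjusted p = 7.37e-18) and with JSH-23 in WT tumors (-0.38, SE 0.061, adjusted p = 1.65e-07), and rose with JSH-23 in *Arid1a* KO tumors (0.25, SE 0.065, adjusted p = 0.000642). That rise was hardly present on TPM, where the KO means of *Dkc1* were 29.1 with vehicle and 29.3 with JSH-23. *Gar1*, which contacts the catalytic protein, fell by 0.43 on the log2 scale with loss of *Arid1a* and rose by 0.38 with JSH-23 in *Arid1a* KO tumors.

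*Nhp2* and *Nop10* encode the small proteins of that particle. *Nhp2* was at 54.4 and 57.3 CPM (WT) and 57.7 and 57.5 CPM (KO) under vehicle, and at 61.6 and 59.2 CPM (WT) and 86.7 and 87.2 CPM (KO) under JSH-23. The KO samples with JSH-23 stood apart from the 6 others. *Nhp2* rose with JSH-23 in *Arid1a* KO tumors (0.60, SE 0.047, adjusted p = 1.62e-18) and was higher in KO than in WT tumors with JSH-23 (0.53, SE 0.047, adjusted p = 1.81e-15). *Nop10* was at 35.0 and 37.3, 29.6 and 33.8, 45.5 and 46.8 and 56.2 and 54.5 CPM in WT with vehicle, KO with vehicle, WT with JSH-23 and KO with JSH-23, without overlap between the groups. It fell by 0.18 on the log2 scale with loss of *Arid1a*, a call that was lost without WT vehicle sample 2 (-0.14) or KO vehicle sample 1 (-0.098), and rose with JSH-23 in both genotypes, by 0.80, SE 0.062, adjusted p = 1.35e-18 in *Arid1a* KO and 0.35, SE 0.066, adjusted p = 4.76e-06 in WT tumors. Its interaction, 0.45, was called in edgeR (adjusted p = 4.38e-05). At 738 bases *Nop10* was the shortest member, which matters for the trend with gene length described further on.

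**Figure D3:**
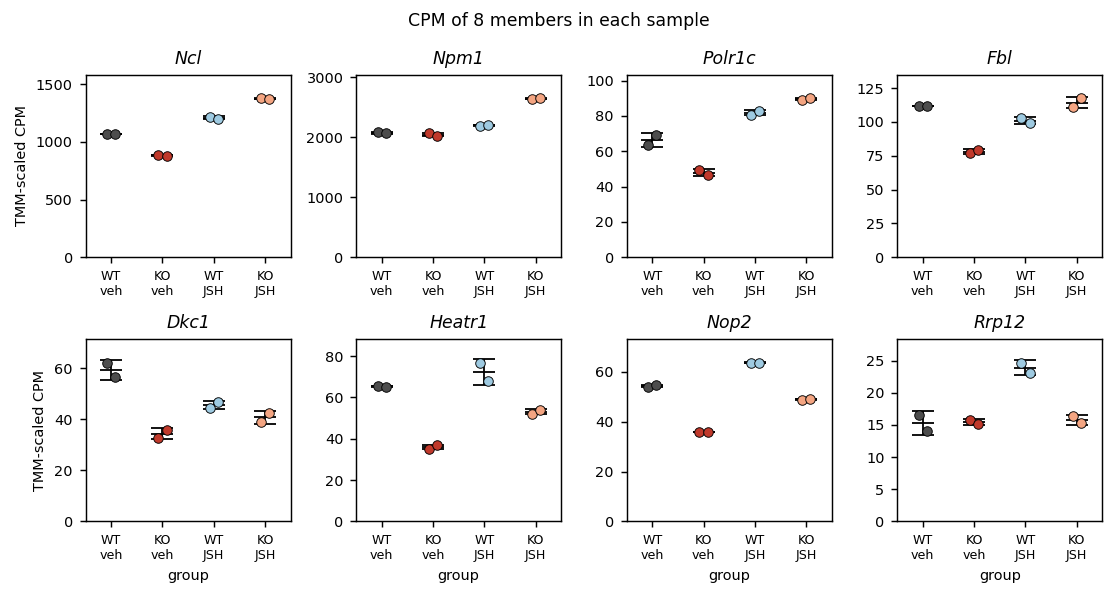
TMM-scaled CPM of 8 members in each sample (points), with the mean and SD of the 2 samples of each group (bars), on axes that start at 0. *Ncl* and *Polr1c* are lowest in *Arid1a* KO with vehicle and highest in *Arid1a* KO with JSH-23, *Fbl* is lowest in *Arid1a* KO with vehicle and alike in WT with vehicle and *Arid1a* KO with JSH-23, *Dkc1*, *Heatr1* and *Nop2* are lowest in *Arid1a* KO with vehicle but stay below WT with vehicle in *Arid1a* KO with JSH-23, and *Rrp12* stands out in WT with JSH-23.

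Assembly of the small subunit starts on the precursor as it is transcribed, in a particle called the SSU processome. Its 15 genes had a median log2 fold change of -0.23 with loss of *Arid1a*, where 10 fell. With JSH-23 the median was 0.16 in *Arid1a* KO tumors, where 8 rose, and 0.00 in WT tumors, where 5 rose and 6 fell. The value in *Arid1a* KO tumors turned to -0.08 on TPM, with 4 higher and 6 lower. *Heatr1* (chr13:12395375-12438893, plus strand), a large repeat protein that joins RNA polymerase I transcription to early processing, had the largest fall of all members. It was at 65.6 and 65.2 CPM (WT) and 35.2 and 36.8 CPM (KO) under vehicle, and at 76.9 and 68.1 CPM (WT) and 52.2 and 53.9 CPM (KO) under JSH-23. KO samples lay below WT samples under both treatments. The fall with loss of *Arid1a* was -0.86, SE 0.058, adjusted p = 4.82e-21 with vehicle and -0.45, SE 0.053, adjusted p = 3.63e-11 with JSH-23, and JSH-23 raised *Heatr1* in *Arid1a* KO tumors (0.56, SE 0.059, adjusted p = 4.24e-13).

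Of its partners in the complex that binds the 5' end of the precursor, *Wdr43* and *Utp4* fell by 0.30 and 0.22 on the log2 scale with loss of *Arid1a*, and *Wdr75* differed by -0.13, which was not called (adjusted p = 0.156 in edgeR). *Rrp9*, a protein of the U3 snoRNP that guides early cleavage, was at 32.0 and 32.4 CPM (WT) and 21.3 and 19.8 CPM (KO) under vehicle, and at 35.2 and 36.0 CPM (WT) and 32.2 and 34.4 CPM (KO) under JSH-23. The KO samples with vehicle lay below the 6 others, of which WT under vehicle and KO under JSH-23 overlapped. *Rrp9* fell with loss of *Arid1a* (-0.65, SE 0.078, adjusted p = 5.51e-11) and rose with JSH-23 in *Arid1a* KO tumors (0.70, SE 0.075, adjusted p = 6.93e-13).

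*Rrp12* (chr19:41859483-41896153, minus strand), a repeat protein of late subunit maturation and export, showed another order of the groups. It was at 16.6 and 14.0 CPM (WT) and 15.7 and 15.1 CPM (KO) under vehicle, and at 24.7 and 23.0 CPM (WT) and 16.3 and 15.3 CPM (KO) under JSH-23. The WT samples with JSH-23 stood above the 6 others. *Rrp12* rose with JSH-23 in WT tumors (0.64, SE 0.096, adjusted p = 2.83e-08), and in *Arid1a* KO tumors the difference was 0.03, SE 0.098, adjusted p = 0.764. *Bysl*, a factor of late nuclear subunit precursors, rose in both genotypes, by 0.57 in WT and 0.45 in KO tumors. It was at 13.1 to 14.0 CPM in the 4 samples with vehicle and at 17.8 to 20.4 CPM in the 4 with JSH-23.

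The other small-subunit members are given by their differences. *Emg1*, a methyltransferase of the small-subunit RNA, rose by 0.69 with JSH-23 in *Arid1a* KO tumors and was then higher there than in WT tumors (0.31). *Imp3*, a protein that pairs the U3 snoRNA with the precursor, rose by 0.42. Both had fallen with loss of *Arid1a*, by 0.29 and 0.35 on the log2 scale. *Nol6*, an RNA-associated protein of the processome, fell with loss of *Arid1a* under vehicle (-0.50) and was lower in KO than in WT tumors with JSH-23 (-0.44), while its fall with JSH-23 in WT tumors (-0.16) was lost without WT vehicle sample 1 (-0.097) or WT JSH-23 sample 1 (-0.077). Its difference with JSH-23 in *Arid1a* KO tumors, -0.11, was not called (adjusted p = 0.0851 in edgeR). *Utp20*, *Ddx10*, a helicase, and *Tsr1*, which acts on late precursors in the cytoplasm, fell by 0.23, 0.31 and 0.19 on the log2 scale with loss of *Arid1a*. *Imp4* fell with JSH-23 in WT tumors (-0.34), a call that was lost without WT vehicle sample 1 (-0.21), and *Nop14*, a processome protein, differed by at most 0.13 in size in any of the 4 comparisons.

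Among the 13 large-subunit genes the median log2 fold change with loss of *Arid1a* was -0.30, with 11 lower. With JSH-23 it was 0.32 in *Arid1a* KO tumors, where 9 rose, and 0.07 in WT tumors, where 5 rose and 4 fell. *Nop16*, a protein of early large-subunit precursors, was at 30.7 and 29.8 CPM (WT) and 16.8 and 18.5 CPM (KO) under vehicle, and at 28.2 and 27.7 CPM (WT) and 25.7 and 24.2 CPM (KO) under JSH-23. The KO samples were below the WT samples under both treatments, with the wider gap under vehicle. *Nop16* fell with loss of *Arid1a* (-0.78, SE 0.083, adjusted p = 1.14e-12), rose with JSH-23 in *Arid1a* KO tumors (0.50, SE 0.084, adjusted p = 3.45e-07) and differed by -0.11, SE 0.078, adjusted p = 0.216 in WT tumors. *Nop2*, whose upstream sequence is printed above, was at 53.9 and 54.5, 36.0 and 36.0, 63.5 and 63.7 and 48.8 and 49.0 CPM in WT with vehicle, KO with vehicle, WT with JSH-23 and KO with JSH-23. No groups overlapped, and KO stayed below WT with JSH-23 (-0.38, SE 0.054, adjusted p = 1.1e-08).

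*Mrto4*, a relative of a protein of the ribosomal stalk that holds its place during assembly, was at 29.7 and 35.0 CPM (WT) and 29.5 and 29.4 CPM (KO) under vehicle, and at 38.9 and 38.4 CPM (WT) and 44.2 and 46.0 CPM (KO) under JSH-23. It rose with JSH-23 in *Arid1a* KO tumors (0.62, SE 0.067, adjusted p = 1.11e-12) and in WT tumors (0.26, SE 0.071, adjusted p = 0.00158), the latter lost without WT vehicle sample 1 (0.15). *Rrs1*, which brings the 5S RNA particle into the precursor, rose in both genotypes too. It was at 37.3 and 35.6, 29.5 and 30.2, 51.0 and 52.5 and 41.2 and 40.3 CPM in the 4 groups in that order. The rise was 0.51, SE 0.063, adjusted p = 1.86e-10 in WT and 0.45, SE 0.065, adjusted p = 8.94e-09 in *Arid1a* KO tumors, and the WT samples with JSH-23 were the highest.

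The PeBoW complex, made of the products of *Pes1*, *Bop1* and *Wdr12*, acts in the processing of large-subunit RNA. *Pes1* fell by 0.17 on the log2 scale with loss of *Arid1a* and rose with JSH-23 in *Arid1a* KO tumors (0.42, SE 0.029, adjusted p = 8.36e-21), where it stood at 223 and 225 CPM against 182 and 173 CPM in WT. *Wdr12* fell with loss of *Arid1a* (-0.37) and rose with JSH-23 in both genotypes (0.44 in KO and 0.32 in WT). *Bop1* lay between 31.0 and 37.0 CPM in the 8 samples, and none of its 5 comparisons was called, the lowest adjusted p in edgeR being 0.133. The helicase gene *Ddx18*, the GTPase genes *Gnl3* and *Gtpbp4*, and *Nip7*, *Ppan* and *Rrp1b*, whose products act in large-subunit maturation, fell by 0.22 to 0.39 on the log2 scale with loss of *Arid1a*. Of these 6, *Gnl3*, *Nip7* and *Rrp1b* rose with JSH-23 in *Arid1a* KO tumors.

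The multifunctional genes include the most abundant of the 45. Per length, in the authors' TPM, *Npm1* was at 1487 and *Ncl* at 311 in WT tumors with vehicle, followed by *Npm3* at 215, while the lowest members were *Bysl* at 8.61, *Wdr12* at 7.78 and *Rrp12* at 4.96. *Ncl* (chr1:86344719-86359455, minus strand) encodes nucleolin, which opens ribosomal DNA chromatin and binds the nascent precursor. It was at 1072 and 1072 CPM (WT) and 883 and 881 CPM (KO) under vehicle, and at 1218 and 1201 CPM (WT) and 1377 and 1369 CPM (KO) under JSH-23. The 4 groups were far apart compared with the gap between the 2 samples of each. *Ncl* fell with loss of *Arid1a* (-0.28, SE 0.015, adjusted p = 1.03e-25) and rose with JSH-23 in *Arid1a* KO (0.64, SE 0.015, adjusted p = 3.6e-47) and WT tumors (0.17, SE 0.015, adjusted p = 4.32e-16). With JSH-23 it was higher in KO than in WT (0.18), which turned to -0.01 on log2(TPM + 1).

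*Npm1* (chr11:33152498-33164142, minus strand) encodes nucleophosmin, the protein that gives the outer nucleolus its liquid structure. It was at 2083 and 2064 CPM (WT) and 2063 and 2024 CPM (KO) under vehicle, and at 2192 and 2202 CPM (WT) and 2634 and 2648 CPM (KO) under JSH-23. The most abundant member thus did not follow the fall with loss of *Arid1a* (-0.02, SE 0.013, adjusted p = 0.164), and rose with JSH-23 in *Arid1a* KO tumors (0.37, SE 0.013, adjusted p = 1.07e-37) more than in WT tumors (0.08, SE 0.013, adjusted p = 7.93e-08), with an interaction of 0.29, SE 0.018, adjusted p = 2.65e-22. *Npm1* has near-identical pseudogenes, so the placement of its reads is uncertain. *Ddx21*, a helicase that works in both ribosomal RNA transcription and processing, was at 122 and 124, 97.8 and 106, 164 and 168 and 141 and 146 CPM in WT with vehicle, KO with vehicle, WT with JSH-23 and KO with JSH-23. It rose with JSH-23 by similar sizes in *Arid1a* KO (0.49, SE 0.036, adjusted p = 7.81e-20) and WT tumors (0.43, SE 0.036, adjusted p = 6.44e-17), with an interaction of 0.06, SE 0.051, adjusted p = 0.338. *Nolc1*, a chaperone of snoRNPs, and *Npm3*, a nucleoplasmin relative, rose with JSH-23 in both genotypes by between 0.16 and 0.37.

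Whether JSH-23 acted differently in the 2 genotypes was tested as an interaction, the log2 fold change with JSH-23 in *Arid1a* KO minus that in WT tumors. It was positive and called for 26 members (57.8%) and negative for 2, *Rrp12* and *Rrn3*, with a median of 0.23, while 20.5% of all genes were positive and 17.9% negative. By the 1.5-fold criterion 5 members were positive, *Fbl*, *Dkc1*, *Nop16*, *Polr1c* and *Emg1*, and 1 was negative, *Rrp12*, where 3.93% of all genes were positive and 7.01% negative. The median was largest for the box C/D (0.54) and box H/ACA (0.52) genes and RNA polymerase I (0.40), and was 0.23 for large-subunit, 0.18 for multifunctional and 0.13 for small-subunit genes, the last 2 turning to -0.02 and -0.07 on TPM. On TPM 14 members were positive and 6 negative, with 7.5% and 32.6% of all genes. Since the interaction holds the vehicle comparison and the JSH-23 comparison within it, a member that was low in *Arid1a* KO tumors with vehicle tends to have a positive value.

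Among single members *Fbl* had the largest interaction (0.70, SE 0.056, adjusted p = 3.55e-17), followed by *Dkc1* (0.63, SE 0.090, adjusted p = 1.66e-08), *Nop16* (0.61, SE 0.11, adjusted p = 9.26e-06) and *Polr1c* (0.61, SE 0.069, adjusted p = 2.16e-11). Each of these 4 had its lowest level in *Arid1a* KO tumors with vehicle. In *Rrp12* the interaction was -0.61, SE 0.14, adjusted p = 0.000195, from the rise in WT tumors. Over the 45 members the JSH-23 effects in KO and in WT tumors, which share no samples, had a Pearson's r of 0.51 and a Spearman's rho of 0.56, and 39 of 45 were more positive in KO. The corresponding r over all 13921 genes was 0.66, with 6896 genes more positive in KO. These correlations are across genes, which are not independent replicates.

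**Figure D4:**
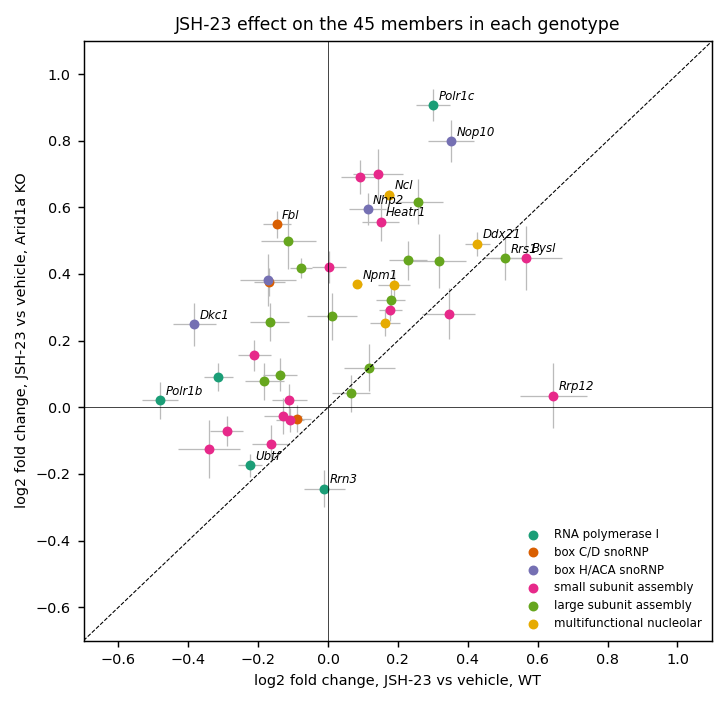
Log2 fold change with JSH-23 in WT tumors (horizontal) and *Arid1a* KO tumors (vertical) for the 45 members, with standard errors as bars and a dashed line where both are equal. A total of 39 members lie above the line, *Polr1c* is highest at 0.91 in KO, and *Rrp12* lies far below the line at 0.64 in WT.

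Comparisons that involve *Arid1a* KO tumors with JSH-23 carried a trend with gene length over all genes. With all genes in 5 bins of equal size by length, in the bin of the shortest (median length 1212 bases) the median log2 fold change with JSH-23 in *Arid1a* KO tumors was 0.14, and in that of the longest (8896 bases) it was -0.10, while in WT tumors both were 0.01. Loss of *Arid1a* with vehicle gave 0.01 and -0.02. The members followed the trend only in part. With JSH-23 in *Arid1a* KO tumors their medians were 0.57, 0.11, 0.27, 0.09 and 0.16 from the shortest bin to the longest. Among the 9 members shorter than 1500 bases the median with JSH-23 in *Arid1a* KO tumors was 0.60, and among the 36 others 0.25. Over the 45 members the correlation of the log2 fold change with log2 length was -0.50 in *Arid1a* KO against WT with JSH-23, -0.46 with JSH-23 in *Arid1a* KO, -0.39 for the interaction, -0.09 with JSH-23 in WT and -0.07 with loss of *Arid1a* under vehicle. The trend of all genes was then removed, an adjustment chosen after the data were seen. With JSH-23 in *Arid1a* KO tumors 30 members were then higher and 1 lower, beside 34.7% and 32.3% of all genes. The interaction was positive for 25 members and negative for 2, beside 20.4% and 16.3% of all genes. With loss of *Arid1a* under vehicle 35 members were lower and 1 higher, beside 25.6% and 25.0% of all genes. In *Arid1a* KO against WT with JSH-23 the removal gave 10 higher and 18 lower in place of 12 and 15. Of all genes 23.9% were then higher and 21.2% lower. Of the 45 members 15 changed their call, *Polr1c*, *Fbl*, *Nop10*, *Mrto4* and *Npm3* being no longer higher. The cause of the trend was not tested.

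**Figure D5:**
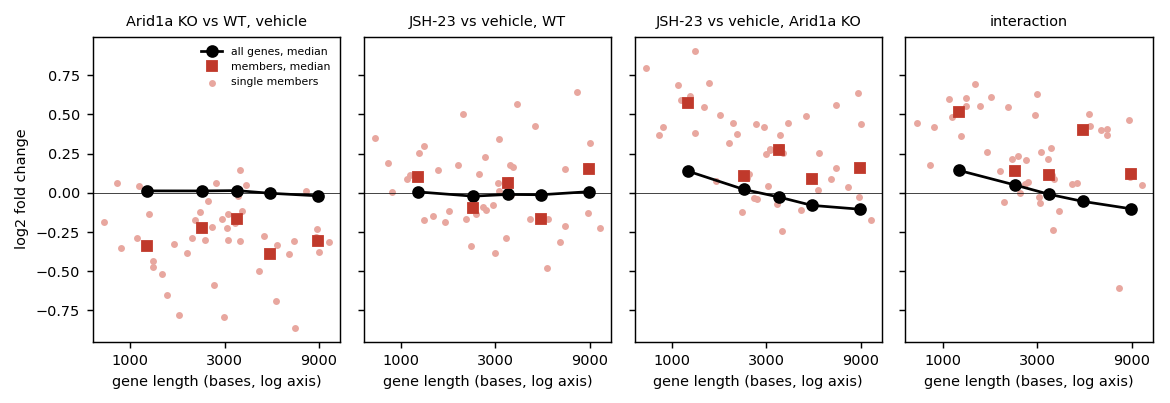
Log2 fold change against gene length (bases, log axis) in 3 comparisons and the interaction, as medians over 5 length bins of all 13921 genes (black line), medians of the members in the same bins (red squares) and single members (pale points). The black line falls from 0.14 to -0.10 with JSH-23 in *Arid1a* KO tumors and is flat in the other 2 comparisons, and the red squares lie above it with JSH-23 in *Arid1a* KO and below it with loss of *Arid1a* under vehicle.

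Other lists of genes place the members in their pathway. Over all genes tested, 25.0% rose and 25.5% fell with loss of *Arid1a* under vehicle. With JSH-23, 33.4% rose and 34.4% fell in *Arid1a* KO tumors, and 28.6% rose and 27.2% fell in WT tumors. Of 94 further ribosome biogenesis genes, 42 fell and 6 rose with loss of *Arid1a* under vehicle, a median log2 fold change of -0.10, and 44 rose and 17 fell with JSH-23 in *Arid1a* KO tumors, a median of 0.15 that became -0.09 on TPM. The 79 cytosolic ribosomal protein genes, whose products are the ribosome itself, went the other way with loss of *Arid1a*: 44 rose and 16 fell, with a median of 0.07. With JSH-23, 78 of the 79 rose in *Arid1a* KO (median 0.36, or 0.21 after removal of the length trend) and 71 in WT tumors (median 0.14). Of 30 other genes driven by MYC, 17 fell and 10 rose with loss of *Arid1a*, and 20 rose and 10 fell with JSH-23 in *Arid1a* KO tumors. Of 10 proliferation genes, 5 rose and 4 fell with loss of *Arid1a*, and 9 rose with JSH-23 in *Arid1a* KO tumors.

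*Myc* itself went against the members. The mouse gene was at 17.2 and 16.5 CPM (WT) and 55.4 and 54.6 CPM (KO) under vehicle, and at 12.5 and 13.3 CPM (WT) and 22.2 and 24.4 CPM (KO) under JSH-23. It was thus highest in the group in which the members were lowest. *Myc* rose with loss of *Arid1a* (1.70, SE 0.076, adjusted p = 9.44e-31) and fell with JSH-23 in *Arid1a* KO tumors (-1.24, SE 0.069, adjusted p = 8.81e-26), both in edgeR. Counts were made on mouse genes, so the human MYC transgene of the line was not measured on its own. Whether some of its reads were counted as mouse *Myc* was not tested. Of the 10 tested genes of the MYC network, which includes MAX and the MXD repressors, 6 rose and 1 fell with loss of *Arid1a*. Of all genes 25.0% rose and 25.5% fell there. With JSH-23 in *Arid1a* KO tumors 2 of the network rose and 5 fell, beside 33.4% and 34.4% of all genes.

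Single genes of these lists showed how far the range extended. *Rcl1*, a protein of early small-subunit cleavage, fell under vehicle from 77.4 and 79.1 CPM (WT) to 43.4 and 44.0 CPM (KO), a log2 fold change of -0.84, and was at 70.5 and 68.2 CPM in KO samples under JSH-23. *Taf1d*, a subunit of the selectivity factor SL1 of RNA polymerase I, was at 98.9 and 99.0 CPM (WT) and 81.4 and 81.5 CPM (KO) under vehicle, and at 139 and 141 CPM (WT) and 163 and 160.0 CPM (KO) under JSH-23. Its rise with JSH-23 in *Arid1a* KO tumors, 0.98, exceeded that of *Polr1c*. *Nol8* and *Mphosph10*, both nucleolar, rose with JSH-23 in WT tumors by 0.72 and 0.70, as *Rrp12* did. *Nol8* and *Taf1c*, another SL1 subunit, were lower in KO than in WT tumors with JSH-23 (-0.92 and -0.57). *Ccnb1*, the mitotic cyclin, fell by 0.85 on the log2 scale with loss of *Arid1a*, and *Plk1*, a mitotic kinase, rose by 1.04 with JSH-23 in *Arid1a* KO tumors. The replication genes *Mcm4* and *Pcna* fell with JSH-23 in WT tumors by 1.08 and 0.99 on the log2 scale and in *Arid1a* KO tumors by 0.91 and 0.90, without a called interaction (adjusted p = 0.052 and 0.134 in edgeR). Both were higher in KO than in WT tumors under vehicle (0.77 and 0.68) and under JSH-23 (0.94 and 0.78). *Tfrc*, the transferrin receptor and another gene regulated by MYC, followed *Myc* instead of the members, with 116 and 116 CPM (WT) and 333 and 324 CPM (KO) under vehicle, and 92.7 and 92.4 CPM (WT) and 155 and 161 CPM (KO) under JSH-23.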

How the data were processed

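RNA-seq of sorted cells from subcutaneous *Myc*-CaP tumors was analysed in 4 groups of 2 samples, assigned from the sample labels. Per the methods of the study, the authors aligned reads to GRCm38/mm10 with TopHat2, kept the best match and used HTSeq-count for strand-specific gene counts, whereas the submitters' processing notes name HISAT2, HTSeq and DESeq2. Counts were deposited raw, as whole numbers. The deposited TPM values equal each count over a gene length, scaled to the same total in each sample. Keeping the best match can place reads of near-identical copies on either gene, and 8 members overlap another gene on the same strand, mainly snoRNA genes in introns.

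Counts were filtered with filterByExpr (13921 of 39089 genes left), scaled with TMM factors (0.949 to 1.03) and fitted with a mean per group in edgeR 4.0.16 (R 4.3.3), whose quasi-likelihood test gave 4 comparisons and the interaction. The test was checked on simulated counts. The criterion of 1.5-fold with an unadjusted p under 0.05 follows the study. The alternatives were DESeq2 1.42.0, library size alone, limma 3.58.1 on log2(TPM + 1) and log2(TPM + 0.1), no filter, a minimum of 10 counts per sample, a replicate block, only the groups compared, a biological coefficient of variation of 0.1, leaving out each sample in turn, and, added after the data were seen, removal of the trend with gene length. Members given by sample are those with the largest called change of their role in any comparison; of the pathway genes, the 2 that rose most and the 2 that fell most in each comparison are given. *Polr1a*, *Rrn3*, *Pes1*, *Bop1* and *Bysl*, also given by sample or range, were chosen after their values were seen. The members, roles and lists were chosen with earlier results of these data known.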

Additional observations from a re-analysis of the deposited data

Results flagged for a closer look

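The interaction was called in edgeR (adjusted p under 0.05) for 28 members, against a spread between samples that may be technical. With the biological coefficient of variation fixed at 0.1, only *Fbl* kept the call. The values below are log2 fold changes with JSH-23 in *Arid1a* KO minus those in WT tumors. In RNA polymerase I they were 0.40 for *Polr1a*, 0.50 for *Polr1b*, 0.61 for *Polr1c* and -0.23 for *Rrn3*. In the snoRNPs they were 0.70 for *Fbl*, 0.54 for *Nop58*, 0.63 for *Dkc1*, 0.55 for *Gar1*, 0.48 for *Nhp2* and 0.45 for *Nop10*. In small-subunit assembly they were 0.41 for *Heatr1*, 0.56 for *Rrp9*, 0.42 for *Imp3*, 0.60 for *Emg1*, 0.22 for *Tsr1*, -0.61 for *Rrp12* and 0.37 for *Ddx10*. In large-subunit assembly they were 0.50 for *Pes1*, 0.21 for *Nop2*, 0.61 for *Nop16*, 0.26 for *Nip7*, 0.23 for *Ddx18*, 0.36 for *Mrto4*, 0.26 for *Ppan* and 0.42 for *Rrp1b*. Among the multifunctional genes they were 0.46 for *Ncl*, 0.29 for *Npm1* and 0.18 for *Npm3*. In 7 of the 28 the call was lost when certain single samples were left out. These were *Rrn3* (lost in 3 of the 8 omissions, at -0.21 to -0.17), *Nop2* (5, at 0.21 to 0.22), *Nip7* (5, at 0.20 to 0.27), *Npm3* (3, at 0.16 to 0.17), *Ppan* (2, at 0.20 to 0.22), *Tsr1* (without KO JSH-23 sample 2, 0.17) and *Mrto4* (without WT vehicle sample 2, 0.24).

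Of the pathway genes named, 8 had a called interaction. It was 0.76 for *Ccnb1*, 0.48 for *Rcl1*, 0.90 for *Plk1* and 0.48 for *Taf1d*, and it was negative for *Myc* (-0.85), *Tfrc* (-0.73), *Nol8* (-0.57) and *Mphosph10* (-0.50).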

How the results depend on the processing

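With each sample left out in turn, the members' median log2 fold change stayed between -0.29 and -0.27 with loss of *Arid1a* under vehicle. With JSH-23 it was 0.27 to 0.35 in *Arid1a* KO and 0.005 to 0.047 in WT tumors. It was -0.089 to -0.034 in KO against WT with JSH-23 and 0.21 to 0.29 for the interaction. The medians of all genes lay between -0.02 and 0.01 throughout.

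With the biological coefficient of variation fixed at 0.1, loss of *Arid1a* lowered 12 members (9.38% of all genes) and raised 0 (11.2%), JSH-23 raised 21 (19.2%) and lowered 0 (24.1%) in *Arid1a* KO and raised 4 (11.4%) and lowered 2 (14.7%) in WT, KO against WT with JSH-23 gave 1 higher (6.07%) and 3 lower (7.54%), and the interaction was positive for 1, *Fbl* (1.81%), and negative for 0 (3.56%). Most calls thus rest on the small spread within pairs. DESeq2 raised 0 members with loss of *Arid1a*, lowered 10 with JSH-23 in WT and gave 1 negative interaction, and no filter raised 0. With library size alone, 2 rose with loss of *Arid1a* (27.6% of all genes), 23 were lower in KO against WT with JSH-23 (32.3%) and 8 fell with JSH-23 in *Arid1a* KO (42.5%). On log2(TPM + 1) and log2(TPM + 0.1), loss of *Arid1a* raised 2 members (23.5% and 22.4% of all genes). With either pseudocount, KO against WT with JSH-23 gave 5 higher and 30 lower, and JSH-23 in *Arid1a* KO raised 18 and lowered 14. The interaction was positive for 14 and negative for 6. Removal of the length trend left 1 lower with JSH-23 in *Arid1a* KO and changed the call of 15 members in KO against WT with JSH-23. E-boxes upstream of the start were in 3 members in place of 8.

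Values that changed sign on log2(TPM + 1) and log2(TPM + 0.1) were, in KO against WT with JSH-23, *Polr1c* (-0.058 and -0.058), *Fbl* (-0.012 and -0.012), *Nop14* (-0.056 and -0.056) and *Ncl* (-0.0081 and -0.0081). With JSH-23 in *Arid1a* KO they were *Polr1a* (-0.14 and -0.15, and -0.0236 with library size alone) and *Ddx10* (-0.079 and -0.082), and in the interaction *Npm3* (-0.021 and -0.021, and -0.0083 without the length trend). The members' median with JSH-23 in WT became -0.030 and -0.031, and -0.0046 with at least 10 counts in every sample. The cause of these shifts was not tested.

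Replicate numbers did not pair the samples, with correlations of same-numbered deviations between -0.0072 and 0.026. With the replicate number as a block, 27 members had a positive interaction (20.8% of all genes) and 221 of 225 member values kept their direction and side of the threshold. Pairs of samples limit every p-value here.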
